A study of Mus musculus with 28 samples.

Results

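The nuclear genes for subunits of the respiratory chain and the ATP synthase were followed in mouse embryonic fibroblasts (MEFs). Members were the genes of the array annotation whose symbol begins with Nduf and a letter of a complex I subunit, Uqcr, Cox4 to Cox8 or Atp5, together with Sdha, Sdhb, Sdhc and Sdhd. The rule found 79 genes among 17097, at 135 of 28898 probe sets that carry 1 gene symbol. Each gene was read at 1 probe set, the one with the highest mean over all 28 arrays. Of the 79 genes, 69 encode core subunits, with 31 in complex I, 4 in complex II, 7 in complex III, 10 in complex IV and 17 in complex V. Core here means every subunit other than the tissue isoforms below, accessory subunits included, and not the catalytic core of a complex. Another 7 encode isoforms of complex IV subunits known from particular tissues (Cox4i2, Cox6a2, Cox6b2, Cox7a1, Cox7b2, Cox8b and Cox8c). The last 3 stand apart: Cox7a2l, a factor of supercomplex assembly, Ndufa4l2, a paralogue of Ndufa4, and the pseudogene Ndufs5-ps, whose signal cannot be separated from that of a near-identical parent gene. The rule itself uses gene symbols and mean levels, and no difference between groups.

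Complexes I and II take electrons from NADH and succinate and pass them to ubiquinone, complex III carries them on to cytochrome c, and complex IV, cytochrome c oxidase, gives them to oxygen. Complexes I, III and IV pump protons as they do so, and complex V, the ATP synthase, lets the protons flow back through its Fo part to drive ATP formation in its F1 part. Most subunits are encoded in the nucleus, and all members described here are. The mitochondrially encoded subunits were not analysed here.

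The MEFs came from 13.5-day embryos and were used at passage 2. They were p53-/-, p66-/- (lacking the p66Shc protein) or WT. p66-/- and WT cells were exposed to 0.25 μg/ml of doxorubicin (Doxo, 2 arrays each), an anthracycline that damages DNA, and cells of each genotype were exposed to 400 μM H2O2 (4 arrays each) or left untreated (4 arrays each). By the labels each exposure lasted 4 h. The labels give the strain as C57Bl/6 and the methods as sv129, both mutants carry their deletion in all cells, and 4 preparations are stated per group, 2 for Doxo. Values are log2 expression levels from total RNA, so that fewer cells of a type and less RNA per cell cannot be told apart, and differences are log2 differences.

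In p53-/- MEFs the treatment labels went against stress genes. Atf3, an early stress gene, averaged 5.98 in p53-/- MEFs labelled as treated with H2O2 and 8.88 in those labelled as untreated, against 8.64 in WT MEFs after H2O2 and 5.79 in untreated WT MEFs. Gadd45a and Id1 were turned round in the same way, so the p53-/- treatment groups are called by their labels throughout, and no direction of an H2O2 response is drawn from them. Cdkn1a, a p53 target, averaged 6.64 and 7.65 in the p53-/- groups labelled H2O2 and untreated, against 11.76 and 10.49 in WT MEFs after H2O2 and without treatment.

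The arrays also fell into 3 sets by their labelling controls, one of replicates 3 and 4, one of replicates 1 and 2, and one of the 4 Doxo arrays. The lys spike-in averaged 5.55 on Doxo arrays, 4.55 on replicates 3 and 4 and 6.66 on replicates 1 and 2. The bioB control averaged 7.59, 6.94 and 6.22 on the same sets, an order that the subunit means also had: complex I averaged 10.67 on Doxo arrays, 10.31 on replicates 3 and 4 and 10.05 on replicates 1 and 2. All Doxo arrays form a set of their own, so a Doxo response and this array set cannot be told apart, and values by set are given beside the Doxo results. Of 10 fibroblast markers, 4 fell and none rose in p66-/- MEFs after Doxo (list mean 9.72 to 9.77 on Doxo arrays, against 10.13 to 10.56 on untreated arrays), and 3 fell and none rose in WT MEFs (9.51 to 9.74, against 9.93 to 10.63). Of 26 markers of other cell types, 6 rose and 1 fell in p66-/- MEFs (5.17 to 5.37 against 4.72 to 4.94) and 3 rose in WT MEFs (5.11 to 5.25 against 4.63 to 4.88). Of all probe sets, 26.6% rose and 14.1% fell in p66-/- MEFs after Doxo (limma, adjusted p under 0.05). In WT MEFs 21.9% rose and 13% fell. The markers of other cell types thus rose no more often than probe sets at large. The part of either list in the results below was not tested.

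Core subunits were among the brighter probe sets of the arrays. Their means over all arrays lay between 8.41 and 12.63, with a median of 10.68, against 4.41 for all 45037 probe sets tested. The tissue isoforms of complex IV lay between 2.85 and 6.03, and 3 of the 7 (Cox4i2, Cox7a1 and Cox7b2) were in the lowest 40% of probe sets. The means of the core subunits by complex are plotted for every array and show the 4 Doxo arrays above all 24 others in complexes I, II and V.

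**Figure D1:**
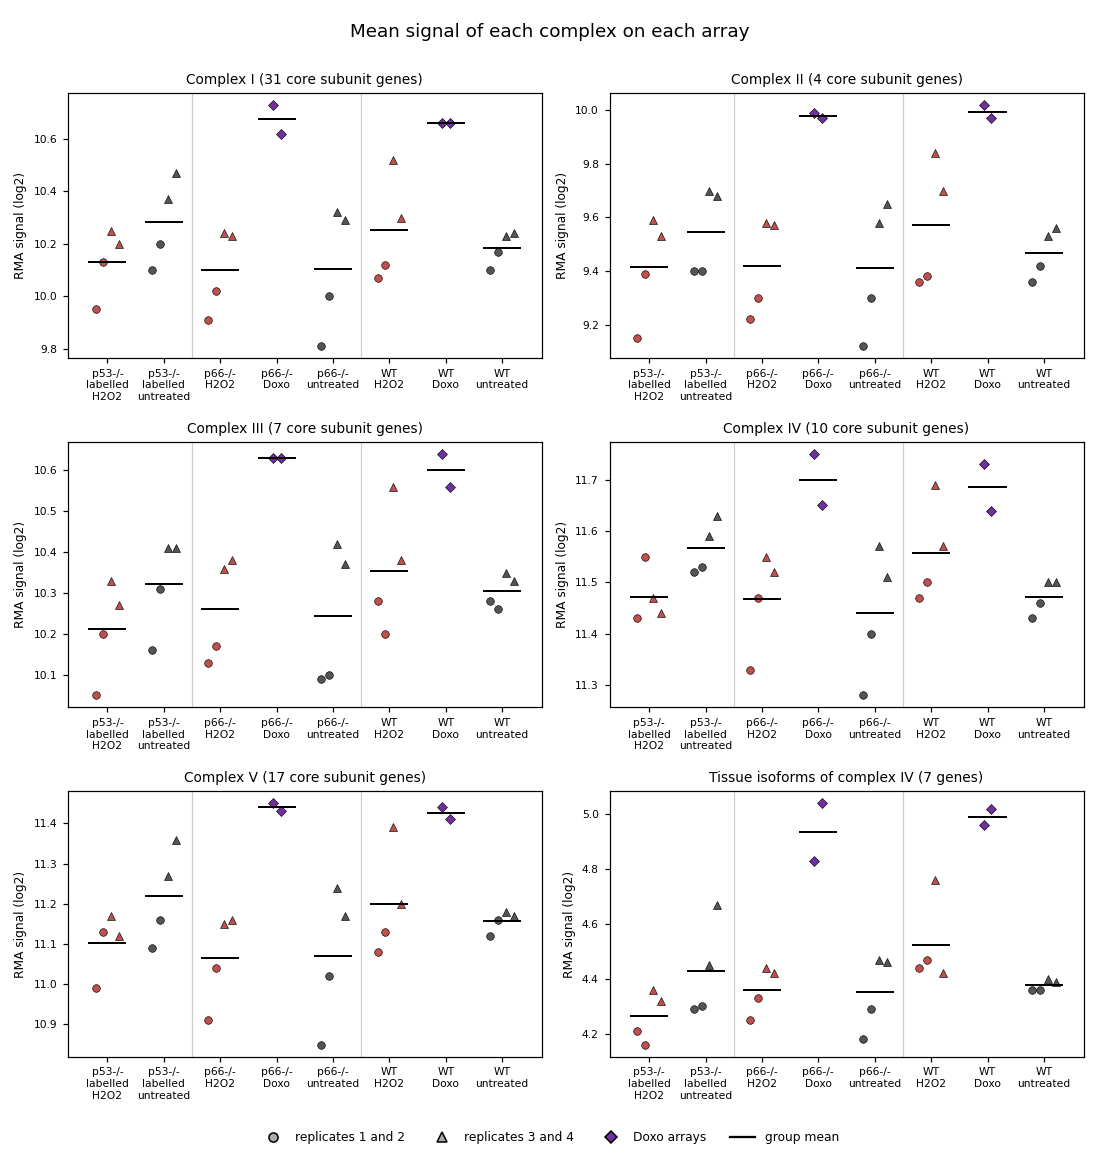
Mean log2 expression of the core subunits of each complex and of the tissue isoforms of complex IV (vertical axis), with a point for each of the 28 arrays by group (horizontal axis), lines for group means and markers for the 3 array sets; a level applies to its own panel and is not to be set against another. The Doxo arrays lie at 10.62 to 10.73 for complex I and at 9.97 to 10.02 for complex II, above every other array.

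Most of the subunit genes were higher on Doxo arrays than on untreated arrays in both genotypes, while 3 were lower. In p66-/- MEFs 54 of 79 members rose and 3 fell, against 26.6% and 14.1% of all probe sets (limma, Benjamini-Hochberg adjusted p under 0.05). In WT MEFs 45 rose and 3 fell, against 21.9% and 13% of all probe sets. Among the 5591 probe sets with a mean of 8 or more, 26.2% rose and 33.6% fell in p66-/- MEFs, and 22% rose and 32.7% fell in WT MEFs. That floor lies below every core subunit, and the levels were not matched. The median change of the members was 0.50 in p66-/- MEFs and 0.48 in WT MEFs, against 0.15 and 0.13 over all probe sets. At the study's own threshold (1.5-fold or more, with an unadjusted p under 0.05), 38 members passed in p66-/- MEFs (24.7% of all probe sets) and 31 in WT MEFs (22.5%). Both Doxo arrays lay above all 4 untreated arrays for 62 members in p66-/- MEFs and for 63 in WT MEFs, as they did for 39.2% of all probe sets in each genotype, and below them for 3 (18.8%) and 4 (19.5%).

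The 2 genotypes share no array in these comparisons. The 42 members that rose in both were 77.8% of those in p66-/- MEFs and 93.3% of those in WT MEFs, and the same 3 genes, Ndufs1, Uqcrb and Atp5j, fell in both. Each of these 3 has a single probe set, so its fall could not be read at another, while 38 members have more than 1. Over the 79 members the changes in p66-/- and WT MEFs correlated across genes at r = 0.96 (rho = 0.93); genes are not independent replicates, and the arrays of each genotype share their set. The response differed between p66-/- and WT MEFs for none of the 79 members (interaction term in limma, adjusted p under 0.05, with 0% of all probe sets called, none of the members and 2.39% of all probe sets at an unadjusted p under 0.05, and none by the methods' t-test). Its widest estimate was for Cox6a2, at 0.38 (95% confidence interval -0.21 to 0.96).

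**Figure D2:**
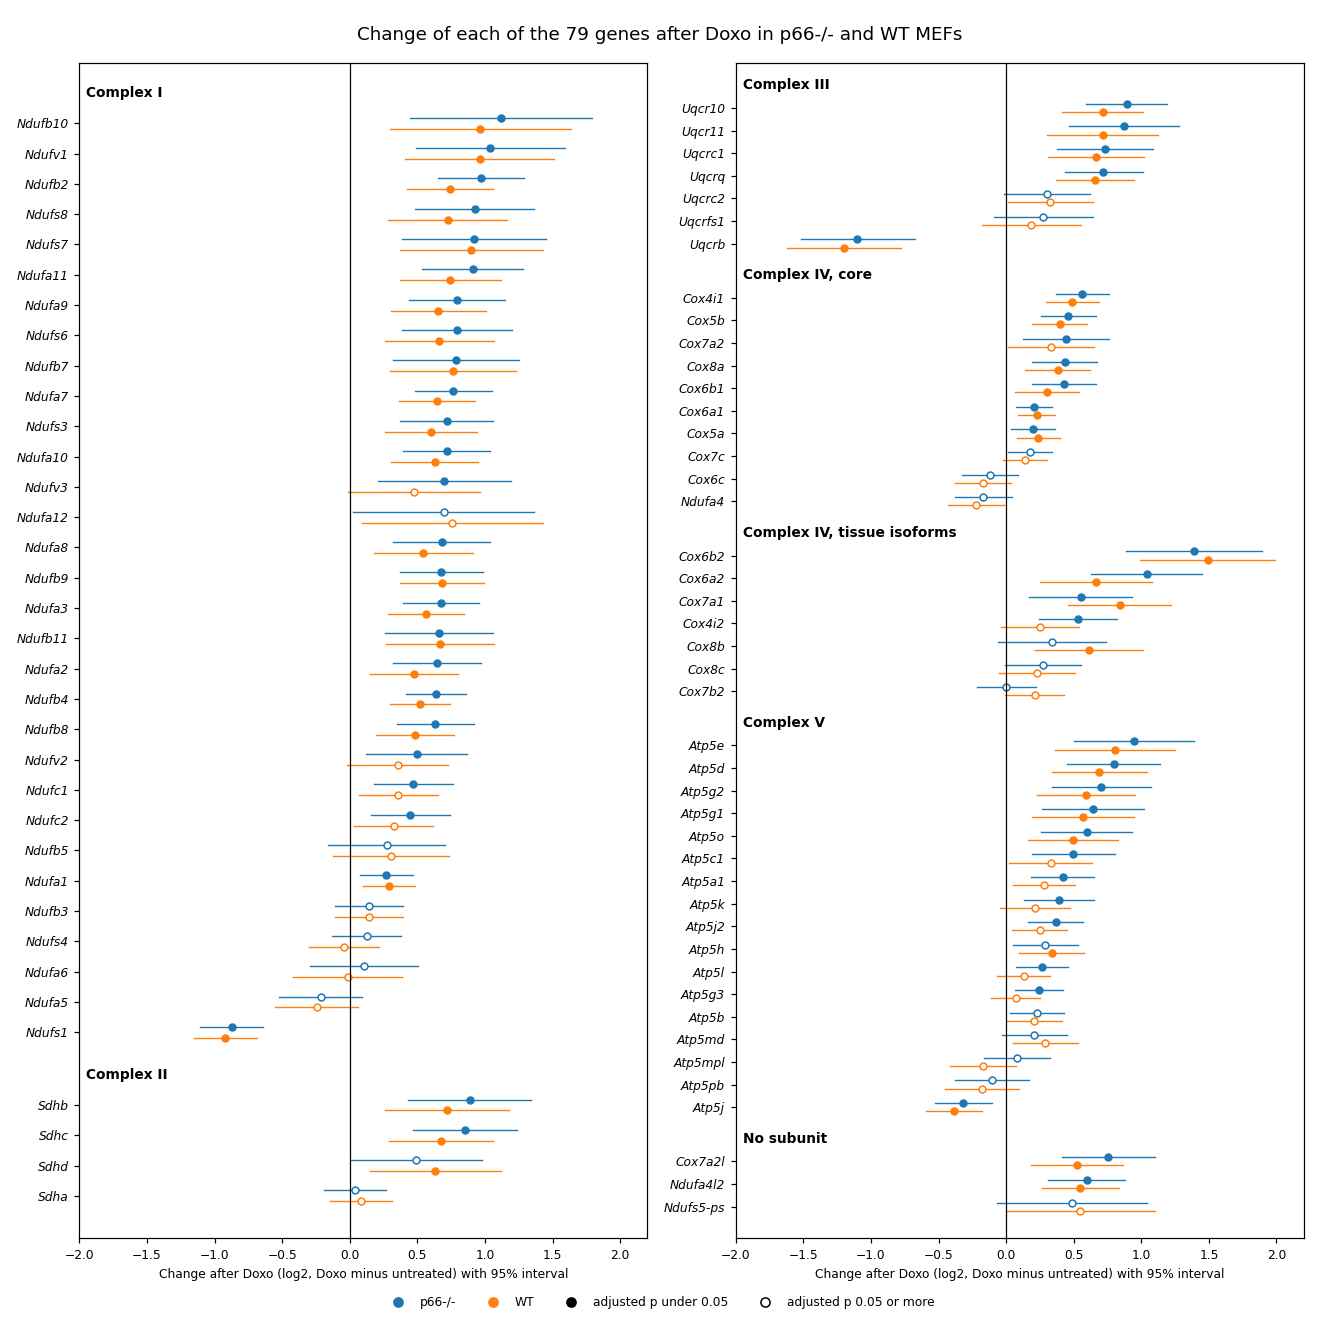
Log2 change after Doxo for each member by complex, in p66-/- and WT MEFs, with 95% confidence intervals from limma. Most members lie right of 0 in both genotypes, while Ndufs1, Uqcrb and Atp5j lie left of it.

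In complex I, 24 of 31 core subunits rose and 1 fell in p66-/- MEFs, and 20 rose and 1 fell in WT MEFs. Set beside this count, and those by module, complex and isoform below, 26.6% of all probe sets rose and 14.1% fell in p66-/- MEFs. The WT shares were 21.9% and 13%. These parts hold few genes, and their counts were not tested against the shares. Ndufv1, which binds NADH and the flavin that receives its electrons, measured 10.74 and 10.65 on p66-/- Doxo arrays, against 9.24, 9.36, 9.99 and 10.03 on untreated p66-/- arrays. On WT Doxo arrays it measured 10.61 and 10.87, against 9.71, 9.65, 9.84 and 9.92 on untreated WT arrays. All Doxo arrays were above all untreated arrays, and the 4 untreated p66-/- arrays split by array set. The change was 1.04 ± 0.27 (SE) in p66-/- MEFs, a 2.06-fold rise (limma, adjusted p = 0.004), and 0.96 ± 0.27 in WT MEFs (1.95-fold, adjusted p = 0.0082).

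Ndufs1, the iron-sulphur subunit that lies next to Ndufv1 in the NADH-oxidising module, went the other way. It measured 7.50 and 7.62 on p66-/- Doxo arrays, against 8.39, 8.46, 8.43 and 8.46 on untreated p66-/- arrays. On WT Doxo arrays it measured 7.80 and 7.47, against 8.49, 8.63, 8.58 and 8.52 on untreated WT arrays. The groups stood well apart in both genotypes, and untreated arrays of the different sets were at the same level. Ndufs1 fell by 0.87 on the log2 scale in p66-/- MEFs (1.83-fold lower, adjusted p = 5.6e-06) and by 0.92 in WT MEFs (1.89-fold lower, adjusted p = 4e-06). Within the same module of 9 subunits, 6 rose in p66-/- MEFs and 4 in WT MEFs.

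The ubiquinone-reducing module and the membrane arm rose without an exception among the called genes. Of 6 subunits of the ubiquinone module, 4 rose in each genotype. Ndufs7, which holds the last iron-sulphur centre before ubiquinone, measured 10.81 and 10.68 on p66-/- Doxo arrays, against 9.43, 9.40, 10.21 and 10.27 on untreated ones. In WT MEFs it measured 10.72 and 10.84 after Doxo, against 9.75, 9.70, 10.05 and 10.03 untreated. The groups did not overlap, and the changes were 0.92 ± 0.26 in p66-/- MEFs (adjusted p = 0.0075) and 0.90 ± 0.26 in WT MEFs (adjusted p = 0.0099). Ndufs8, a neighbouring iron-sulphur subunit, changed by 0.92 (adjusted p = 0.0018) and 0.72 (adjusted p = 0.012) in p66-/- and WT MEFs.

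Of 16 membrane-arm subunits, 14 rose in p66-/- MEFs and 12 in WT MEFs. Ndufb10, an accessory subunit of that arm, had the highest estimate of the core subunits in both genotypes. It measured 10.73 and 10.56 on p66-/- Doxo arrays, against 9.13, 9.05, 10.01 and 9.94 untreated, and 10.62 and 10.74 on WT Doxo arrays, against 9.53, 9.51, 9.90 and 9.91 untreated. Its spread among untreated arrays was wide, with replicates 3 and 4 above replicates 1 and 2, and the change was 1.12 ± 0.32 in p66-/- MEFs (2.17-fold, adjusted p = 0.0094) and 0.96 ± 0.32 in WT MEFs (1.95-fold, adjusted p = 0.025). Ndufb2, another accessory subunit of the arm, was tighter. It measured 10.75 and 10.54 on p66-/- Doxo arrays, against 9.35, 9.52, 9.89 and 9.94 untreated, and 10.51 and 10.55 on WT Doxo arrays, against 9.86, 9.77, 9.73 and 9.80 untreated. Untreated WT arrays of both sets overlapped and lay below both Doxo arrays, with a change of 0.97 (adjusted p = 5.8e-05) in p66-/- MEFs and 0.74 (adjusted p = 0.00097) in WT MEFs. Ndufa11, a further accessory subunit of the arm, changed by 0.91 (adjusted p = 0.00051) and 0.74 (adjusted p = 0.0032) in p66-/- and WT MEFs. Ndufb7 changed by 0.79 (adjusted p = 0.0084) and 0.76 (adjusted p = 0.012).

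**Figure D3:**
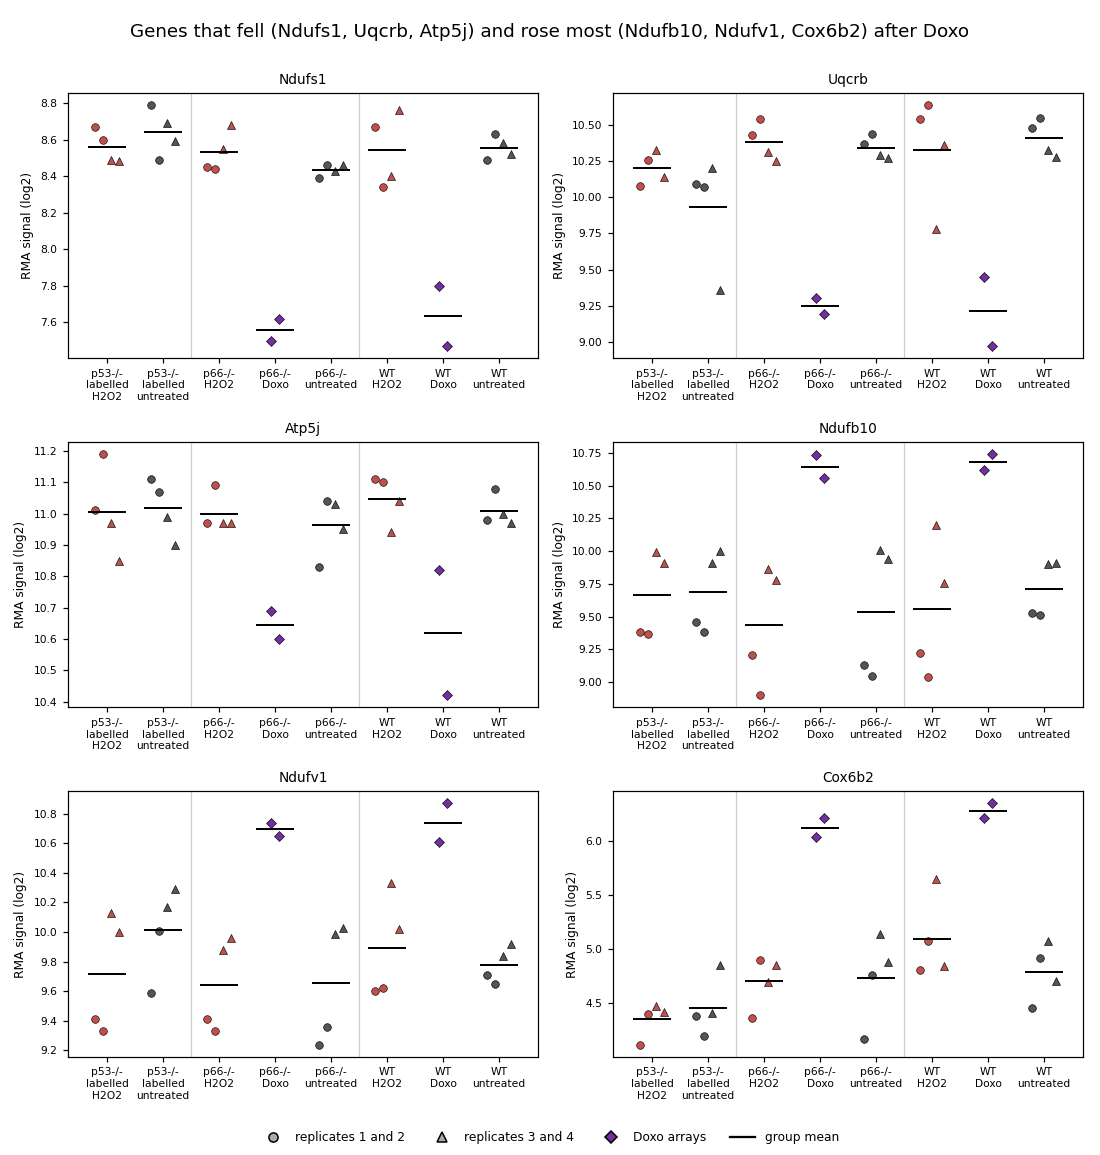
Log2 expression (vertical axis) of the 3 members that fell after Doxo (Ndufs1, Uqcrb and Atp5j) and of Ndufb10, Ndufv1 and Cox6b2 on each array by group (horizontal axis), with lines for group means and markers for the 3 array sets. The Doxo arrays of the falling members lie below all untreated arrays of their genotype, and those of Ndufb10, Ndufv1 and Cox6b2 lie above them.

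In complex II, succinate dehydrogenase, 2 of 4 subunits rose in p66-/- MEFs and 3 in WT MEFs. The subunits were not tested against each other. Sdha, the flavoprotein that oxidises succinate, measured 10.08 and 10.11 on p66-/- Doxo arrays, against 9.96, 10.04, 10.10 and 10.14 on untreated ones, and 10.25 and 10.18 on WT Doxo arrays, against 9.93, 10.18, 10.26 and 10.14 on untreated ones. The groups overlapped in both genotypes, with differences of 0.04 (adjusted p = 0.78) in p66-/- MEFs and 0.09 (adjusted p = 0.56) in WT MEFs. A second Sdha probe set (mean 8.87) differed by 0.21 (limma, adjusted p = 0.27) and 0.26 (adjusted p = 0.19). At low signal, an Sdha probe set with a mean of 3.44 rose in both genotypes (adjusted p = 0.048 and 0.02), and another with a mean of 3.54 was called in neither. Sdhb, the iron-sulphur subunit that passes the electrons on, measured 11.46 and 11.41 on p66-/- Doxo arrays, against 10.24, 10.28, 10.89 and 10.79 untreated. In WT MEFs it measured 11.27 and 11.42 after Doxo, against 10.46, 10.51, 10.73 and 10.80 untreated. All Doxo arrays of Sdhb were above all untreated arrays, with a change of 0.89 (adjusted p = 0.0033) in p66-/- MEFs and 0.72 (adjusted p = 0.016) in WT MEFs. Of the membrane anchors, Sdhc changed by 0.85 (adjusted p = 0.0012) and 0.68 (adjusted p = 0.0083) in p66-/- and WT MEFs. Sdhd changed by 0.49 (adjusted p = 0.095) in p66-/- MEFs and by 0.63 (adjusted p = 0.04) in WT MEFs, so that only the WT value passed the threshold.

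In complex III, 4 of 7 subunits rose and 1 fell in each genotype. Uqcrb, a small subunit beside the site where ubiquinone is bound, measured 9.30 and 9.19 on p66-/- Doxo arrays, against 10.37, 10.44, 10.29 and 10.27 on untreated p66-/- arrays. It measured 9.45 and 8.97 on WT Doxo arrays, against 10.48, 10.55, 10.33 and 10.28 on untreated WT arrays. The Doxo arrays lay below all untreated arrays by about a log2 unit in both genotypes. Uqcrb fell by 1.10 (2.14-fold lower, adjusted p = 0.00026) in p66-/- MEFs and by 1.20 (2.30-fold lower, adjusted p = 0.00012) in WT MEFs. The others that were called rose: Uqcr10, another small subunit, changed by 0.89 (adjusted p = 6.5e-05) in p66-/- MEFs and 0.72 (adjusted p = 0.00069) in WT MEFs. Uqcrc1, a core protein of the matrix side, changed by 0.73 (adjusted p = 0.002) and 0.66 (adjusted p = 0.005) in p66-/- and WT MEFs. Its partner Uqcrc2 and the Rieske iron-sulphur protein Uqcrfs1 passed the threshold in neither genotype (adjusted p = 0.11 and 0.21 in p66-/- MEFs, and 0.099 and 0.41 in WT MEFs).

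In complex IV, 7 of 10 core subunits rose in p66-/- MEFs and 6 in WT MEFs, with a mean change of 0.26 and 0.21 over the 10. Cox4i1, the common form of the subunit that binds adenine nucleotides, measured 12.46 and 12.40 on p66-/- Doxo arrays, against 11.71, 11.83, 12.02 and 11.92 untreated, and 12.39 and 12.45 on WT Doxo arrays, against 11.90, 11.89, 11.98 and 11.95 untreated. The groups stood apart, with a change of 0.56 (adjusted p = 0.00011) in p66-/- MEFs and 0.49 (adjusted p = 0.00051) in WT MEFs. Cox6c, Cox7c and Ndufa4 were called in neither genotype, and Ndufa4 had differences of -0.17 (adjusted p = 0.18) in p66-/- MEFs and -0.22 (adjusted p = 0.09) in WT MEFs.

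Of the 7 tissue isoforms, 4 rose in each genotype, from low levels. Cox6b2, the testis form of the subunit that faces the intermembrane space, measured 6.04 and 6.21 on p66-/- Doxo arrays, against 4.17, 4.76, 5.14 and 4.88 on untreated p66-/- arrays. In WT MEFs it measured 6.21 and 6.35 after Doxo, against 4.46, 4.92, 5.08 and 4.71 untreated. No Doxo array overlapped the untreated arrays, and this was the largest change among the 79 members in both genotypes: 1.39 ± 0.24 (2.62-fold, adjusted p = 0.00014) in p66-/- MEFs and 1.49 ± 0.24 (2.81-fold, adjusted p = 8e-05) in WT MEFs. The muscle form Cox6a2 rose in both genotypes. It measured 6.50 and 6.52 on p66-/- Doxo arrays, against 5.47, 5.09, 5.77 and 5.55 untreated, and 5.79 and 6.17 on WT Doxo arrays, against 5.29, 5.28, 5.25 and 5.42 untreated. These groups did not overlap either, with changes of 1.04 (adjusted p = 0.00038) and 0.66 (adjusted p = 0.014) in p66-/- and WT MEFs. Cox7a1, another muscle form, averaged 3.69 in p66-/- MEFs after Doxo and 3.13 untreated (difference 0.55, adjusted p = 0.021), and 4.05 in WT MEFs after Doxo and 3.21 untreated (difference 0.84, adjusted p = 0.0014). Cox7a1 and Cox4i2 lay below the median of all probe sets, where an RMA value need not lie above background, so the sizes of their differences are uncertain. Cox4i2, the lung form of the Cox4 subunit, passed the threshold in p66-/- MEFs alone (0.53, adjusted p = 0.0047, against 0.25, adjusted p = 0.16, in WT MEFs), and the muscle form Cox8b in WT MEFs alone (0.34, adjusted p = 0.16, in p66-/- MEFs, against 0.61, adjusted p = 0.018), with no interaction called for either.

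In complex V, 11 of 17 subunits rose and 1 fell in p66-/- MEFs (26.6% and 14.1% of all probe sets), and 6 rose and 1 fell in WT MEFs (21.9% and 13%). Of 5 membrane subunits of Fo outside its ring, 3 rose in p66-/- MEFs and none was called in WT MEFs. Atp5e, the epsilon subunit in the central stalk of F1, measured 10.94 and 10.77 on p66-/- Doxo arrays, against 9.40, 9.90, 10.21 and 10.13 untreated, and 10.73 and 10.91 on WT Doxo arrays, against 9.94, 10.06, 9.98 and 10.10 untreated. The Doxo arrays lay above all untreated ones, with changes of 0.95 (adjusted p = 0.0016) in p66-/- MEFs and 0.80 (adjusted p = 0.0066) in WT MEFs. Atp5d, the neighbouring delta subunit, changed by 0.80 (adjusted p = 9e-04) and 0.69 (adjusted p = 0.0035). Atp5b, the catalytic beta subunit, passed the threshold in neither genotype (0.23, adjusted p = 0.064, in p66-/- MEFs and 0.21, adjusted p = 0.098, in WT MEFs).

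The c subunit of the rotating ring is encoded by 3 genes whose mature proteins are the same. Atp5g1 changed by 0.64 (adjusted p = 0.0082) in p66-/- MEFs and 0.57 (adjusted p = 0.02) in WT MEFs, and Atp5g2 by 0.70 (adjusted p = 0.0032) and 0.59 (adjusted p = 0.013). Atp5g3 measured 12.39 and 12.32 on p66-/- Doxo arrays, against 11.92, 12.03, 12.28 and 12.23 untreated, and 12.23 and 12.30 on WT Doxo arrays, against 12.20, 12.16, 12.21 and 12.22 untreated. Its change was 0.24 (adjusted p = 0.03) in p66-/- MEFs and 0.07 (adjusted p = 0.54) in WT MEFs, so that the WT difference did not pass the threshold, although both WT Doxo arrays lay above the 4 untreated ones. Atp5j, coupling factor 6 of the stationary stalk, measured 10.69 and 10.60 on p66-/- Doxo arrays, against 10.83, 11.04, 11.03 and 10.95 untreated, and 10.82 and 10.42 on WT Doxo arrays, against 10.98, 11.08, 11.00 and 10.97 untreated. All Doxo arrays were below all untreated arrays of their genotype, by 0.32 (adjusted p = 0.017) in p66-/- MEFs and 0.39 (adjusted p = 0.0057) in WT MEFs.

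Averaged over core subunits, complex I measured 10.67 ± 0.08 (SD, n = 2) in p66-/- MEFs after Doxo and 10.10 ± 0.24 (n = 4) in untreated p66-/- MEFs, and 10.66 ± 0.01 (n = 2) in WT MEFs after Doxo and 10.18 ± 0.06 (n = 4) in untreated WT MEFs. The mean differences in p66-/- MEFs were 0.57 for complex I, 0.57 for complex II, 0.39 for complex III, 0.26 for complex IV and 0.37 for complex V. In WT MEFs they were 0.47, 0.53, 0.30, 0.21 and 0.27 in the same order. Set against the untreated replicates 3 and 4 alone, they were 0.37, 0.37, 0.24, 0.16 and 0.23 in p66-/- MEFs and 0.43, 0.45, 0.26, 0.19 and 0.25 in WT MEFs. Against replicates 1 and 2 alone, they were 0.77, 0.77, 0.54, 0.36 and 0.50 in p66-/- MEFs and 0.52, 0.61, 0.33, 0.24 and 0.28 in WT MEFs. The tissue isoforms of complex IV differed by 0.59 in p66-/- MEFs and 0.61 in WT MEFs against all untreated arrays. The complexes were not tested against each other, and among arrays without Doxo replicates 3 and 4 lay above replicates 1 and 2 by 0.26 for complex I, 0.31 for II, 0.20 for III, 0.10 for IV and 0.16 for V.

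The members also differed between replicate numbers without Doxo. These numbers mark both array sets and separate preparations, which cannot be told apart. Among the 24 arrays of untreated and H2O2-labelled cells, 57 of 79 members were higher in replicates 3 and 4 than in replicates 1 and 2 and 1, Uqcrb, was lower, against 23.8% and 16.1% of all probe sets (limma, adjusted p under 0.05). The median difference was 0.22, against 0.04 over all probe sets. Ndufb10 differed by 0.67, Ndufv1 by 0.52 and Sdhb by 0.44 between these sets, and Ndufs1 by 0.02 (adjusted p = 0.83). With untreated replicates 3 and 4 as the sole controls, 43 members rose and 2 fell after Doxo in p66-/- MEFs (16.1% and 14.6% of all probe sets), and 46 rose and 3 fell in WT MEFs (19.1% and 16%). With replicates 1 and 2, 62 rose and 2 fell in p66-/- MEFs (30.6% and 16.5%) and 49 rose and 3 fell in WT MEFs (21.2% and 13.7%). The counts also rest on few Doxo arrays: without WT Doxo replicate 2, 16 members were called in WT MEFs, 14 of them higher (15.8% of all probe sets were called), and without WT Doxo replicate 1, 32 were called (25.2%), while without p66-/- Doxo replicate 1, 39 were called in p66-/- MEFs (27.3%). In these fits the lone Doxo array is assumed to vary like the arrays of the other groups.

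Set against H2O2 arrays of the same genotype, Doxo arrays were higher for 52 members and lower for 3 in p66-/- MEFs (30.4% and 15.3% of all probe sets), and higher for 36 and lower for 4 in WT MEFs (17.7% and 12% of all probe sets; limma, adjusted p under 0.05). Ndufs1, Uqcrb and Atp5j were the lower members in p66-/- MEFs, and Cox6c joined them in WT MEFs. These comparisons use the same Doxo arrays as those above.

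Upstream sequences were read for 63 of the 79 members, as 300 bases around the start of the gene (250 before and 50 after) from RefSeq on GRCm38.p6. They were searched on both strands for short words of factors known to act at promoters of respiratory genes: GCGCATGCGC for NRF1, its inner part GCATGC alone, the word CCGGAAG of ETS factors such as GABP, and the word AAGATGG of YY1. The NRF1 word stood in 5 members (Ndufa11, Uqcrc1, Cox6a1, Atp5g2 and Atp5k), or 7.94%, against 1.07% of 27025 genes with such a window. The inner part, which lies within it, stood in 20.6% against 8.93%, the ETS word in 23.8% against 9.93%, and the YY1 word in 17.5% against 7.28%. Among the 35 members with an entry that rose in both genotypes, 4 held the NRF1 word, 9 the ETS word and 5 the YY1 word, and among the 14 called in neither, 0, 1 and 3 held them. A match is a description of the sequence and no evidence of binding.

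Windows are shown for 6 members named above that rose in both genotypes, 3 with and 3 without a word, and for Atp5j, the one of the 3 falling genes with an entry, with the words in capitals (on either strand). No word was found in Cox6b2 (chr7:4753045-4753344, minus strand), Ndufb10 (chr17:24724374-24724673, minus strand) or Ndufv1 (chr19:4012706-4013005, minus strand). Words were found in Ndufa11 (chr17:56717512-56717811, plus strand), Ndufs7 (chr10:80249199-80249498, plus strand), Atp5e (chr2:174464052-174464351, minus strand) and Atp5j (chr16:84834927-84835226, minus strand).
Cox6b2: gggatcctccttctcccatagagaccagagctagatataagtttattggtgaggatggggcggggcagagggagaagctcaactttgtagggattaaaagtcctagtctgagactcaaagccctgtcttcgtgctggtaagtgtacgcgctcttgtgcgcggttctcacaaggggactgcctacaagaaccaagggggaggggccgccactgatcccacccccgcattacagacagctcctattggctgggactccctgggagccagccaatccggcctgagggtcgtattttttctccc
Ndufb10: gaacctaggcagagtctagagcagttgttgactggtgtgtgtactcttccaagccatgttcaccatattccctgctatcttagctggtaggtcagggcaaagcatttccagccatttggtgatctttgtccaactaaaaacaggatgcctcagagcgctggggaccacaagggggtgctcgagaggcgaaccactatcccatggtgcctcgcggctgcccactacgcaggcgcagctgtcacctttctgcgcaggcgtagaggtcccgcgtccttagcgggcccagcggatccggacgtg
Ndufv1: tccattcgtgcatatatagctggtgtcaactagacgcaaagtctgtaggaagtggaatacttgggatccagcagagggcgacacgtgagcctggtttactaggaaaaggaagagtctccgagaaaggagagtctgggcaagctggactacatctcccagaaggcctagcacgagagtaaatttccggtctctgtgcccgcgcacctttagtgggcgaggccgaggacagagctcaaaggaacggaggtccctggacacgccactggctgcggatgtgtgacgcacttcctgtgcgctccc
Ndufa11: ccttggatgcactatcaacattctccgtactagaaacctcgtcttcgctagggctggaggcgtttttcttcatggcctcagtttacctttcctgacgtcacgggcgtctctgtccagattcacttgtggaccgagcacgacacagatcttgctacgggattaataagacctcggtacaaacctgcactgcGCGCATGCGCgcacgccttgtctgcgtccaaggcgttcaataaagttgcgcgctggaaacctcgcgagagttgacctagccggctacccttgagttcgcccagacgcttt
Ndufs7: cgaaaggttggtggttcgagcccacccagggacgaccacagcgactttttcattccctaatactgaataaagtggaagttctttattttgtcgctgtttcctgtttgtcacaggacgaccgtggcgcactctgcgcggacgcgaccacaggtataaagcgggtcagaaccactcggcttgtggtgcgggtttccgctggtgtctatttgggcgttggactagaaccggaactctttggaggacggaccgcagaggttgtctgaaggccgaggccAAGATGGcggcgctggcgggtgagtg
Atp5e: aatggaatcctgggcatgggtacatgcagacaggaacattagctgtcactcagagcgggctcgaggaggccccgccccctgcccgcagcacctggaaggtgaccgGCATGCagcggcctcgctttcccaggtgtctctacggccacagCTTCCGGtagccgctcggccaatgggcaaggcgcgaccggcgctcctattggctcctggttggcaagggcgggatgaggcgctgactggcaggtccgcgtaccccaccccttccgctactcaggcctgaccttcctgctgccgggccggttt
Atp5j: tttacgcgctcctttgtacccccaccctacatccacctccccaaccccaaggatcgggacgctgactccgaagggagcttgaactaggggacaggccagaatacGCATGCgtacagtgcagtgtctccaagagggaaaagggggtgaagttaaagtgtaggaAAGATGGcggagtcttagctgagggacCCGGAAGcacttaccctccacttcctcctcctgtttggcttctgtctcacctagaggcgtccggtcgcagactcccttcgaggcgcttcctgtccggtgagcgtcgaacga
In Ndufa11 the capitals mark the NRF1 word, which begins 60 bases before the start. In Ndufs7 they mark the YY1 word, 25 bases after it. In Atp5e they mark the inner NRF1 part and the ETS word on the opposite strand. In Atp5j they mark the inner NRF1 part, the YY1 word and the ETS word in turn. The Atp5j window is 1 of 2 in the table, the other of which holds none of the words, and 247 of its bases also lie in the window of Gabpa on the opposite strand, which encodes the DNA-binding subunit of GABP. Gabpa averaged 5.47 in p66-/- MEFs after Doxo and 8.26 untreated (difference -2.79, limma, adjusted p = 3e-04), and 5.15 in WT MEFs after Doxo and 8.13 untreated (difference -2.98, adjusted p = 0.00018). A link between Gabpa and Atp5j or any other member was not tested.

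Counts for other mitochondrial gene lists after Doxo were not tested against those of the subunits. Of all probe sets, 26.6% rose and 14.1% fell in p66-/- MEFs (limma, adjusted p under 0.05). In WT MEFs 21.9% rose and 13% fell. Several of the list counts lie near these shares. Of 41 assembly factors of the respiratory chain, 17 rose and 6 fell in p66-/- MEFs and 13 rose and 8 fell in WT MEFs. Changes over these factors ran from -1.76 to 1.86 in p66-/- MEFs and from -1.57 to 1.83 in WT MEFs. Among them Tmem70, needed to assemble ATP synthase, changed by -1.76 in p66-/- MEFs and -1.57 in WT MEFs, and the complex I assembly factor Ndufaf4 by -1.29 and -1.39. Of 19 regulators of mitochondrial biogenesis, 5 rose and 9 fell in each genotype, among them Tfam, which packages and transcribes mitochondrial DNA (-1.0 in p66-/- and -0.93 in WT MEFs). Of 15 genes of the TCA cycle, 6 rose and 4 fell in p66-/- MEFs and 3 rose and 4 fell in WT MEFs, with Sucla2, a subunit of succinyl-CoA ligase, at -1.43 and -1.55 and Idh3b, a subunit of isocitrate dehydrogenase, at 0.58 and 0.55. Of 15 genes for electron carriers, 7 rose and 2 fell in p66-/- MEFs and 6 rose and 2 fell in WT MEFs. A further list held the inhibitor of ATP synthase, the carriers of ADP/ATP and of phosphate, Vdac channels and uncoupling proteins. Of its 9 genes on the arrays, 1 rose in p66-/- MEFs and 2 rose in WT MEFs, and none fell in either.

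After H2O2 no subunit gene passed the threshold in p66-/- or WT MEFs in the fit without a replicate block. In p66-/- MEFs no member was called, against 0.0178% of all probe sets that rose and 0% that fell, and none had an unadjusted p under 0.05, as did 4.41% of all probe sets (limma; the methods' t-test called none either). Of the 79 estimates 43 were positive and 36 negative, with a median of 0.00. In WT MEFs no member was called, against 1.86% and 1.81% of all probe sets, and 3 had an unadjusted p under 0.05, as did 12.4% of all probe sets (limma; none was called by the methods' t-test). All 3 were higher after H2O2. In WT MEFs 62 of 79 estimates were positive, with a median of 0.07 against 0.02 over all probe sets.

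Those 3 were Ndufa1, Cox7a1 and Uqcr10. Ndufa1, an accessory subunit needed to build the membrane arm, measured 10.88, 11.04, 11.13 and 11.00 on WT H2O2 arrays, against 10.63, 10.76, 10.79 and 10.86 on untreated WT arrays. The groups did not overlap, and the difference was 0.26 ± 0.08 (limma, adjusted p = 0.07). With the replicate number as a block, which takes samples of a number as pairs, it passed the threshold (limma, adjusted p = 0.040, with 3.43% of all probe sets higher and 3.92% lower in that fit). Cox7a1 differed by 0.41 (adjusted p = 0.18) and Uqcr10 by 0.25 (adjusted p = 0.38), and in neither were the H2O2 arrays all above the untreated ones.

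Between p53-/- arrays labelled H2O2 and those labelled untreated, no member was called, against 2.11% and 2.45% of all probe sets that were higher and lower (limma; the methods' t-test called none), while 11 had an unadjusted p under 0.05 (17.2% of all probe sets), all lower on arrays labelled H2O2. Of the 79 estimates 73 were negative, with a median of -0.14 against -0.04 over all probe sets. Uqcr10 measured 10.13, 10.07, 10.08 and 10.03 on arrays labelled H2O2, against 10.34, 10.30, 10.45 and 10.58 on arrays labelled untreated. These did not overlap, at a difference of -0.34 (adjusted p = 0.11). For 7 members the arrays labelled H2O2 all lay below those labelled untreated, as they did for 5.68% of all probe sets. With the replicate block 6 members were lower and none higher (4.92% and 4.81% of all probe sets), namely Uqcr10 (adjusted p = 0.017), Ndufb11 (0.018), Cox7a1 (0.027), Cox7a2l (0.039), Atp5g2 (0.041) and Uqcrq (0.047).

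**Figure D4:**
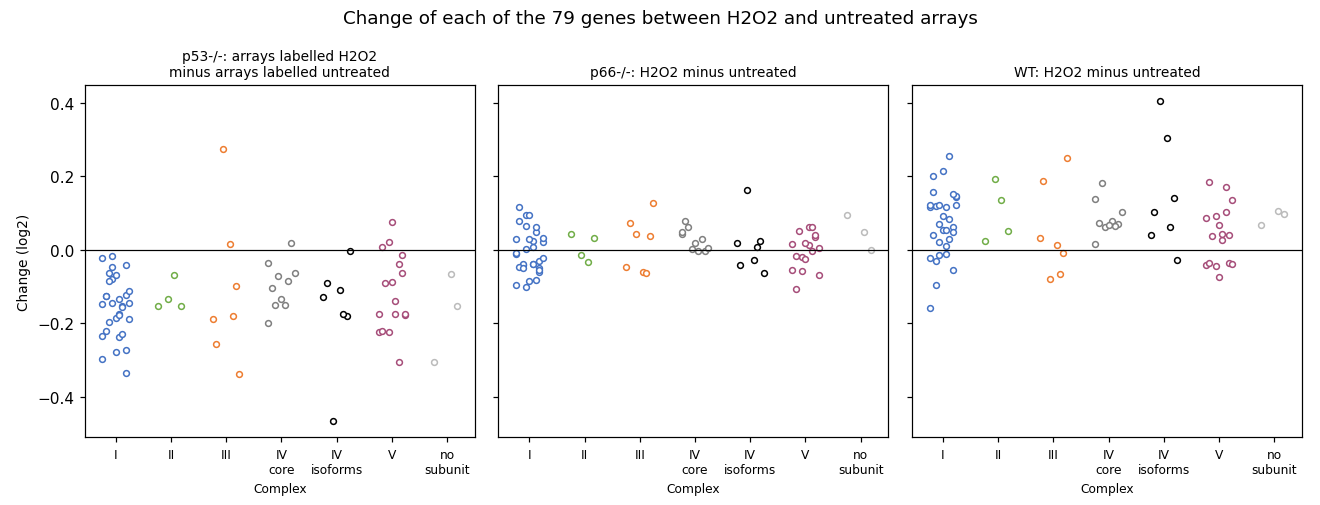
Log2 difference between H2O2-labelled and untreated-labelled arrays for each member, by complex, in p53-/-, p66-/- and WT MEFs. Of the 79 estimates 73 are negative in p53-/- MEFs by their labels, 36 in p66-/- MEFs, and 62 are positive in WT MEFs.

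No member was called for a difference in the H2O2 response between p66-/- and WT MEFs (interaction term in limma, 0% of all probe sets higher and 0.00222% lower, no member and 3.05% of all probe sets with an unadjusted p under 0.05, and none by the methods' t-test). Taken by the labels, the p53-/- response was below the WT response for 4 members and above it for none, against 5.63% and 5.17% of all probe sets, and 11 had an unadjusted p under 0.05 (22.4% of all probe sets). The 4 were Cox7a1 (-0.87, adjusted p = 0.0079), Uqcr10 (-0.59, adjusted p = 0.022), Ndufa7, an accessory subunit of complex I (-0.49, adjusted p = 0.044), and Ndufa1 (-0.49, adjusted p = 0.0042). Cox7a1 lay below the median of all probe sets, so the size of its difference is uncertain. With the p53-/- treatment labels exchanged, no member was called (0% of all probe sets higher and 0.02% lower), and the differences were 0.06 for Cox7a1, 0.09 for Uqcr10, 0.06 for Ndufa7 and -0.03 for Ndufa1 (adjusted p = 1 for each). Without p53-/- replicate 4 labelled untreated, 2 members were called, and without replicate 1 of that group, 7. With the replicate block 12 were lower and none higher, against 9.29% and 9.2% of all probe sets.

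Between genotypes, over the untreated and H2O2-labelled arrays together (8 arrays per genotype, a sum that an exchange of the p53-/- labels leaves as it is), no member was called. In p66-/- against WT MEFs, 74 of 79 estimates were negative, with a median of -0.10 against -0.03 over all probe sets, and 5 had an unadjusted p under 0.05 (limma; 8.29% of all probe sets did, and by adjusted p 0% of all probe sets were higher and 0.00444% lower). With the replicate number as a block across genotypes, 28 members, all lower in p66-/- MEFs, had an unadjusted p under 0.05 (14.1% of all probe sets), and still none was called (lowest adjusted p = 0.16, with 0.0799% of all probe sets higher and 0.0289% lower in that fit). Without the block the lowest p was that of Ndufb8, an accessory subunit of the membrane arm, at -0.20 (adjusted p = 0.50). In p53-/- against WT MEFs, 5 members had an unadjusted p under 0.05 (limma; 12.9% of all probe sets did, and by adjusted p 0.431% of all probe sets were higher and 0.613% lower), and the methods' t-test called none in either comparison.

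Cox6b2 had its lowest group means in p53-/- MEFs. Its p53-/- values lay around the median of all probe sets (4.41), where an RMA value need not lie above background, so the size of a difference is uncertain. In p66-/- MEFs, for comparison, it measured 4.37, 4.90, 4.70 and 4.86 after H2O2 and 4.17, 4.76, 5.14 and 4.88 untreated, which overlapped the p53-/- values. It measured 4.12, 4.40, 4.48 and 4.42 on arrays labelled H2O2 and 4.38, 4.20, 4.41 and 4.86 on arrays labelled untreated in p53-/- MEFs, against 4.81, 5.08, 5.65 and 4.85 after H2O2 and 4.46, 4.92, 5.08 and 4.71 without treatment in WT MEFs. The genotypes overlapped on some arrays, at a difference of -0.53 (adjusted p = 0.065). Cox8c, another testis form, differed by -0.28 (adjusted p = 0.089). With the replicate number as a block across genotypes, Cox6b2 (adjusted p = 0.0054) and Cox8c (adjusted p = 0.038) passed the threshold, while 1.64% of all probe sets were lower and 2.59% higher in that fit.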

How the data were processed

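RNA from 28 cultures of MEFs was hybridised to Affymetrix MG-430 PM strips after 3′ IVT labelling. The submitters' processing notes name RMA and Partek 6.5, and the values deposited by the authors are log2 expression levels, used as they stand. Arrays give no read depth; precision is set by how many arrays a group holds. Control probe sets (104) were left out and 45037 tested. limma 3.58.1 in R 4.3.3 fitted 8 group means, p-values were adjusted by Benjamini and Hochberg over all probe sets, and a member was called at an adjusted p under 0.05. The study's threshold (unadjusted p under 0.05 and 1.5-fold) was an alternative, as were an unmoderated t-test, the other probe sets of a gene, a filter on low values, quantile normalization, the array set, single replicates left out and exchanged p53-/- labels. The unmoderated t-test used the fit of 8 group means and the adjusted p under 0.05. The methods of the study name an ANOVA/t test with an unadjusted p and 1.5-fold, so it is not that test. Fits were also run on simulated data with independent noise around the mean of each probe set. These data held no array-set effect and no pairing, so they do not bear on either.

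Members and gene lists were chosen with earlier results of these data known. Named genes are, for each comparison, up to 8 of the largest called rises and up to 8 of the largest called falls. The lowest p of each complex and the members called in an interaction are named too. Others are named for their role or as isoforms, among them Atp5g3, Sdhd, Uqcrc2, Uqcrfs1, Ndufa4, Cox4i2 and Cox8b. They were described with their values already seen. Replicate numbers were checked for pairing: deviations from group means correlated at 0.51 to 0.75 between H2O2 and untreated samples of a number, but at -0.08 to 0.05 for Doxo. These deviations hold the difference between replicates 1 and 2 and replicates 3 and 4, so the correlations alone do not show pairing by number. The best match of an H2O2 array had its own number except in p66-/- MEFs, where replicate 3 matched untreated 4 and replicate 4 matched untreated 3. The numbers were taken to pair H2O2 with untreated samples and not Doxo, and fits with the replicate block rest on this. The labels call the replicates biological and the methods name separate preparations.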

Additional observations from a re-analysis of the deposited data

Results flagged for a closer look

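For 4 members the response to H2O2, taken by the labels, was lower in p53-/- than in WT MEFs by a test of the difference itself: Cox7a1 by -0.87, Uqcr10 by -0.59, Ndufa7 by -0.49 and Ndufa1 by -0.49. These are 4 of 79 members, where 5.63% of all probe sets were lower by the same test. Cox7a1 lay below the median of all probe sets, where an RMA value need not lie above background. The p53-/- treatment labels went against the stress genes, and none of the 4 was called with these labels exchanged.

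In 8 of 138 groups of 4 arrays examined (17 genes and 6 means) 1 array stood far from the other 3, where chance would mark about 1 in 20. In p66-/- MEFs after H2O2, Atp5e measured 9.49 in replicate 1 against 9.98 to 10.08 in the others, Atp5j measured 11.09 in replicate 2 against 10.97 in the others, and Cox6a2 measured 5.17 in replicate 2 against 5.57 to 5.65. In untreated p66-/- MEFs, replicate 1 was low for Ndufa1 (10.69 against 10.87 to 10.88) and Ndufa11 (9.71 against 10.22 to 10.32). In p53-/- MEFs, Ndufb7 measured 10.02 in replicate 1 labelled H2O2 against 10.35 to 10.39, and Uqcrb measured 9.36 in replicate 4 labelled untreated against 10.07 to 10.20. The mean of the tissue isoforms of complex IV was 4.76 in WT H2O2 replicate 3 against 4.42 to 4.47.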

How the results depend on the processing

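Limits were the 2 Doxo arrays per genotype, their array set and the doubt about the p53-/- labels. At the study's threshold, 31 members were called for Doxo in WT MEFs (22.5% of all probe sets) and 2 for the p53-/- against WT difference in the H2O2 response by the labels (13.3%). A fit on the groups compared alone called 36 for Doxo in p66-/- MEFs. All 135 probe sets gave 96 calls for Doxo in p66-/- MEFs, 82 in WT MEFs, 1 for H2O2 in WT MEFs and 8 for the p53-/- against WT response. The paired fit with the replicate block called 1 for H2O2 in WT MEFs, 6 between the p53-/- labels and 12 for the p53-/- against WT response, with the shares given above. The array set as a term called 1, 5 and 8. In that fit 3.06% of all probe sets were higher and 3.27% lower for H2O2 in WT MEFs. The shares were 4.11% and 4.57% between the p53-/- labels, and 8.12% and 8.55% for the p53-/- against WT response. For p53-/- against WT MEFs over both conditions, 2 were called with the block across genotypes, 1 with the array set (1.94% of all probe sets higher and 1.45% lower), 2 in replicates 1 and 2 alone and 1 in untreated arrays alone. Replicates 3 and 4 alone called 1 between the p53-/- labels and 12 for the p53-/- against WT response, and replicates 1 and 2 alone called 0 for that response. Exchanged p53-/- labels also called 0 for it and turned Cox7a1 (0.06), Uqcr10 (0.09) and Ndufa7 (0.06) to the other sign. With tissue isoforms included, the complex IV change after Doxo was 0.40 in p66-/- and 0.38 in WT MEFs. The cause was not tested in any of these. Shares of all probe sets are not given for the groups compared alone, replicates 1 and 2 or 3 and 4 alone, or untreated arrays alone. They are also missing for most fits with 1 array left out below. Counts without a share are not read as results about the members.

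Leaving out 1 array at a time gave 39 to 59 calls for Doxo in p66-/- MEFs, 16 to 48 in WT MEFs, 0 to 1 for H2O2 in WT MEFs, 0 to 1 between the p53-/- labels, 2 to 7 for the p53-/- against WT response (Ndufa7 lost its call without most single arrays), 0 to 1 for p53-/- against WT MEFs and a complex IV change of 0.17 to 0.26 in WT MEFs. Of 154 values for named genes under Doxo in p66-/- MEFs and 153 in WT MEFs, 147 and 140 kept their call, 7 and 13 lost it and none turned. In the comparisons without Doxo the block changed no other call than those given here and in the text. For Doxo it raised the calls over all probe sets, to 35.9% higher and 19.6% lower in p66-/- MEFs. In WT MEFs they came to 30.3% and 17.8%. Member counts of those fits are not given, because the numbers were not taken to pair Doxo with untreated samples.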
